A study of Mus musculus with 6 samples.

Results

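The genes described here make, sense, store and export sterols and fatty acids. They were taken from a list of 40 genes, by keeping probe sets whose platform annotation names exactly 1 gene and, for each gene, the probe set with the highest mean log2 intensity over all arrays. By this rule 38 of the 40 had a value, out of 18194 genes measured in the same way, and Nr1h2 and Soat1 were not analysed here. The samples were memory phenotype CD4+ T cells from female C57BL/6 mice aged 8 to 10 weeks in which experimental autoimmune encephalomyelitis (EAE), an inflammatory demyelinating disease, had been induced with the myelin peptide MOG35-55. RNA came from the spinal cord (3 arrays) or from the draining inguinal lymph node (3 arrays), each at the acute clinical stage, so disease and immunisation were shared by both groups. No array of healthy mice was among the samples, and the labels give neither the number of animals per array nor the sorting markers.

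Cells adjust their sterol content with opposing transcription factors. When sterols in the endoplasmic reticulum are scarce, the escort protein SCAP carries the SREBP factors to the Golgi apparatus for cleavage, and they switch on the enzymes of cholesterol and fatty acid synthesis, while INSIG proteins hold SCAP back when sterols are plentiful. When oxysterols accumulate, liver X receptors (LXR) switch on cholesterol export and the removal of lipoprotein receptors, and they also raise Srebf1 and fatty acid desaturation. In T cells the balance of these programs is known to accompany growth and division. The members were therefore read as SREBP targets of sterol synthesis (18 genes), fatty acid synthesis genes (10) and LXR targets (3), with their regulators and the genes of cholesterol storage and egress.

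All 3 LXR target genes had lower estimates in the spinal cord samples, of which 1, Abca1, was called, and the 18 SREBP targets of sterol synthesis had a median log2 change of 0.15 with none called. Abca1, which encodes the cholesterol exporter of the plasma membrane, fell 8.78-fold, and Scd2, which encodes a stearoyl-CoA desaturase, fell 3.93-fold. These were the 2 members called lower, and 0 were called higher, by limma at an adjusted p below 0.05 with Benjamini-Hochberg adjustment over all genes. They make 5.26% of the 38 members, and 1.41% of all genes were called lower and 1.13% higher. At an unadjusted p below 0.05, 3 members were higher and 5 lower (7.89% and 13.2%), where the shares over all genes were 5.39% and 8.89%. Over all members the median log2 change was 0.01, and over all genes tested it was 0.00.

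Arrays of the same number in the titles deviated together from their tissue means, and a fit with that number as a block is given beside the members whose call it changes. With the block, 2 members were called higher (Insig1 and Hsd17b7) and 7 lower (Abca1, Abcg1, Mylip, Scd2, Fasn, Dhcr7 and Pmvk). That is 5.26% and 18.4% of the members, where 3.67% of all genes were called higher and 7.44% lower. With the block and without both arrays of any single number, an alternative chosen after seeing the data, 0 members were called, and 0 to 329 of all genes. In 4 members every spinal cord value lay above every lymph node value and in 6 every value lay below (10.5% and 15.8%), where the shares over all genes were 8.81% and 9.67%. An exact two-sided permutation test of a single gene cannot give a p below 0.1 with 3 against 3 arrays.

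**Figure D1:**
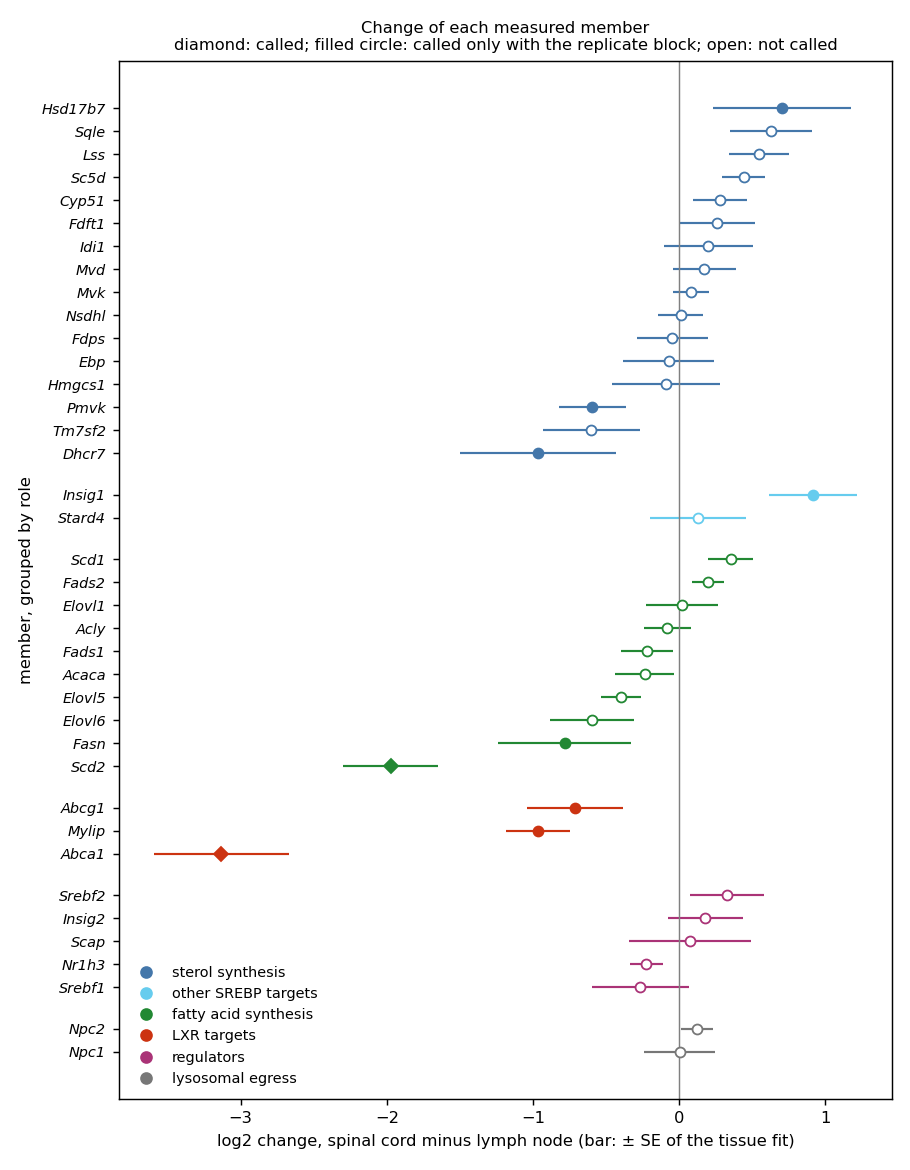
Log2 change of each of the 38 measured members, spinal cord minus lymph node (x axis), with the standard error (SE) of the tissue fit as the bar, grouped by role (y axis). Abca1 at -3.13 and Scd2 at -1.97 lie farthest from 0, and the 3 LXR targets are the only role in the plot with every estimate below 0.

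For the start regions of these genes, the RefSeq promoter table of build GRCm38.p6 held 31 of the 40 members. In the 250 bases before the start, a CCAAT box (letters CCAAT, the site of the factor NF-Y, which is known to work beside SREBP) was found on either strand for all 13 sterol synthesis enzymes with an entry. Of the 27025 genes in the table, 37.5% had this match. A GC box (letters GGGCGG, the Sp1 site) was found for 12 of the 13 (92.3%), and for 35.4% of all genes. Among the 7 fatty acid synthesis genes with an entry, 3 had a CCAAT box and 3 a GC box (42.9% each). Of the 2 LXR targets with an entry, 1 had a CCAAT box and 2 had a GC box. The sterol regulatory element, searched as TCACNCCAC, matched 1 member, Hmgcs1, and 1.22% of all genes. The direct repeat bound by LXR, searched as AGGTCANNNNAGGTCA, matched 0 members and 0.0148% of all genes. A looser form, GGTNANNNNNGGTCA, chosen after the stricter one had no match among members, was found for Abca1, Fasn and Srebf1 and for 0.189% of all genes. Below are the 250 bases before the start of the first enzyme of the list, of the INSIG gene and of both LXR targets with an entry, shown as examples of both programs. Each is written 5′ to 3′ on the gene's strand, with matches to the searched motifs on either strand in capitals.
Hmgcs1 (chr13:119690101-119690350, + strand): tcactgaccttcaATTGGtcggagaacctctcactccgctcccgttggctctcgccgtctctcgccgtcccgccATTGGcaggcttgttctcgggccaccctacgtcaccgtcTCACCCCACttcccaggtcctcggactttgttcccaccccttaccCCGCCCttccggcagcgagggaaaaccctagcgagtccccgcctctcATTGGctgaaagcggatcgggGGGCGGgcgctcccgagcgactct
Insig1 (chr5:28071162-28071411, + strand): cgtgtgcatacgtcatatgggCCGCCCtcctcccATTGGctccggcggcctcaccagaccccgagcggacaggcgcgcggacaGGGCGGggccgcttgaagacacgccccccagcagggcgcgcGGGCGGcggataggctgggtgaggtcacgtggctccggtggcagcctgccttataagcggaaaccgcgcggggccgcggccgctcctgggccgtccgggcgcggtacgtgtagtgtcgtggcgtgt
Abca1 (chr4:53159896-53160145, - strand): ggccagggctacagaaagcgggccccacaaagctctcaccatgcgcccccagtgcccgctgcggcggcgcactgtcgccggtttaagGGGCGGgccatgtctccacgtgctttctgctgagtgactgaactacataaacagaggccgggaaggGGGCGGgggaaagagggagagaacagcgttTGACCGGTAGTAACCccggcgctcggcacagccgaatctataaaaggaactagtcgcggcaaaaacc
Mylip (chr13:45389492-45389741, + strand): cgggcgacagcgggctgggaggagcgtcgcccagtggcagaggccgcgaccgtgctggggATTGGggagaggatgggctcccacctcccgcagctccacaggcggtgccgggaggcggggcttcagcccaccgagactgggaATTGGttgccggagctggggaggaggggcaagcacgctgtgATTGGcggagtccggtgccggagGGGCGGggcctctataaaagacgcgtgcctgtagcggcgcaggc
In the Hmgcs1 sequence the capitals mark 3 CCAAT boxes read on the other strand, 2 GC boxes and the sterol regulatory element TCACCCCAC, which begins 137 bases before the start. Insig1 has 1 CCAAT box and 3 GC boxes, and Mylip has 3 CCAAT boxes and 1 GC box. Abca1 has 2 GC boxes and the looser repeat, on the other strand as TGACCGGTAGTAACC, from 67 to 53 bases before the start, and no CCAAT box. No motif overlapped another in these 4 sequences, and a match describes letters, not binding.

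LXR targets were lower in spinal cord on every same-numbered comparison. Abca1 (probe set 1421840_at) read 82, 258 and 171 on the spinal cord arrays numbered 1, 2 and 3, against 937, 1443 and 1808 on those from lymph node. Every spinal cord value lay below every lymph node value, by 11.4-fold, 5.59-fold and 10.6-fold within numbers. Mean log2 levels were 7.26 ± 0.84 and 10.40 ± 0.48 (SD, n = 3 each), a difference of -3.13 ± 0.46 (SE) that limma called at an adjusted p of 0.0295. The call held without spinal cord array 1 (log2 change -2.68, adjusted p = 0.0457). It was lost without array 2 (adjusted p = 0.0612) or 3 (0.101) of spinal cord, and without lymph node array 1 (0.0565), 2 (0.137) or 3 (0.0986), while the log2 change stayed between -3.51 and -2.68. Values of the other Abca1 probe sets were low on every array, at 30 to 36 and 18 to 31, with changes of -0.16 and -0.35. Averaging all 3 probe sets gave -1.22.

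Mylip encodes a ubiquitin ligase that marks lipoprotein receptors for degradation. It read 1549, 2113 and 1480 in spinal cord against 2593, 3866 and 3604 in lymph node, again without overlap. Its log2 change of -0.97 ± 0.22 was not called by tissue alone (adjusted p = 0.0949) and was called with the block (0.0154). Abcg1, a sterol transporter that works beside ABCA1, read 3146, 2234 and 1502 in spinal cord against 4559, 3860 and 2639 in lymph node. Its tissue groups overlapped, but each spinal cord array was 1.45-fold to 1.76-fold below the lymph node array of its number. The change was -0.71 ± 0.33 (adjusted p = 0.408, and 0.0207 with the block), and a second Abcg1 probe set had -0.57. The median of the 3 LXR targets was -0.97, and with Srebf1 and Scd1, which LXR also controls, it was -0.71.

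Other genes of the LXR and oxysterol pathways went both ways. Of 13 listed, 12 were measured, 0 were called in either direction by limma, with or without the block, and 8 had positive changes (median 0.16). By unadjusted p below 0.05, 1 was higher and 1 lower (8.33% each, against 5.39% and 8.89% of all genes). Several of the list were dim, such as Cyp7b1 at 19 to 26 (0.15) and Ch25h at 24 to 34 (0.19). The brightest were Smpdl3a, Rxrb, Lpcat3 and Pltp, with changes of -0.29, 0.05, -0.35 and 0.26. Lpl, which encodes lipoprotein lipase, had the lowest p, reading 49 to 79 in spinal cord against 36 to 49 in lymph node (log2 change 0.62 ± 0.22, adjusted p = 0.283). Nr1h3, which encodes an LXR, was dim on all arrays, at 34 to 38 against 39 to 45.

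**Figure D2:**
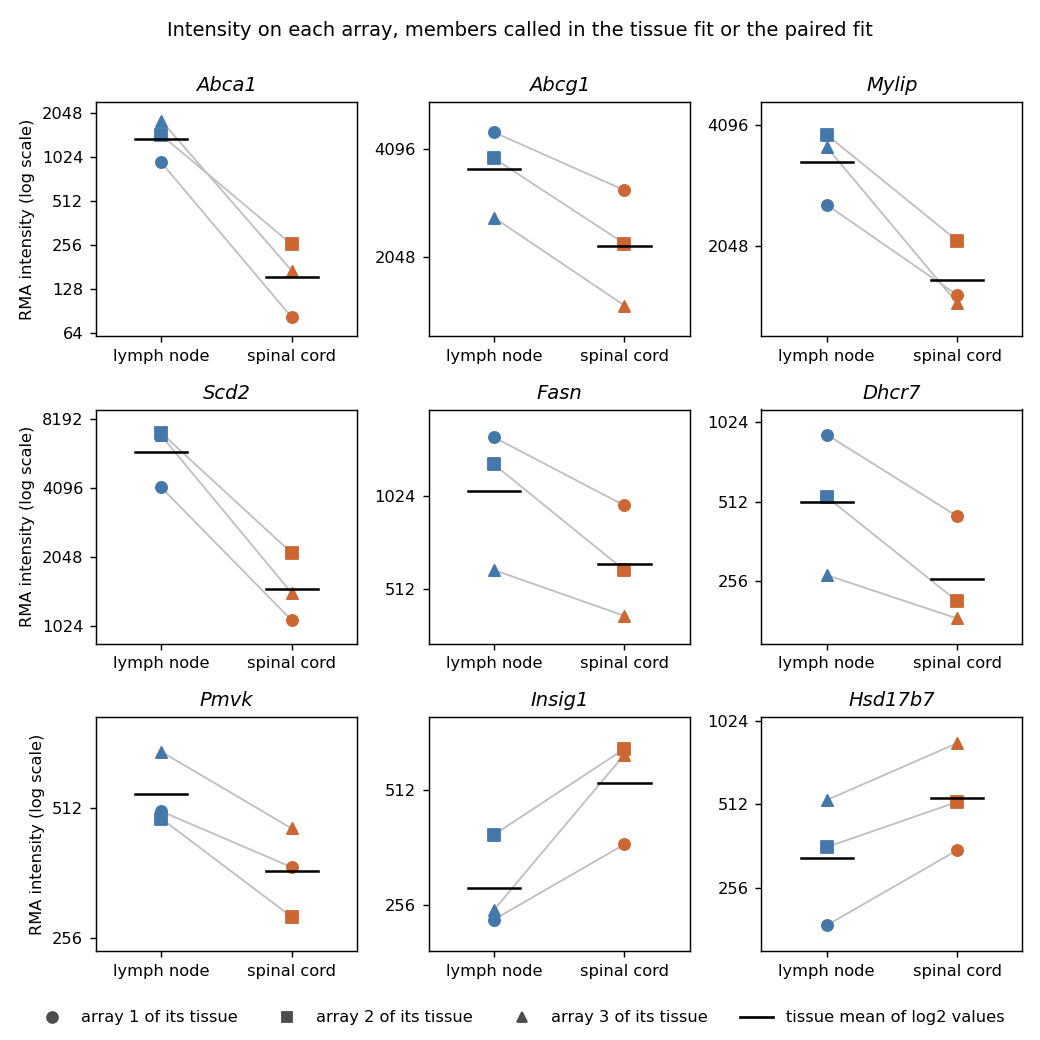
RMA intensity (y axis, log scale) on each array for the 9 members called in the tissue fit or with the replicate block, by tissue (x axis). Symbols give the array number, grey lines join arrays of the same number, and black bars are the means of the log2 values. Abca1 and Scd2 show the widest gaps, while Abcg1, Fasn, Dhcr7, Insig1 and Hsd17b7 overlap between tissues and differ within each number.

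SREBP targets of sterol synthesis had a median log2 change of 0.15, with 12 of 18 positive, 6 negative and 0 called in either direction. Among all 18194 genes tested, 9229 were positive. At an unadjusted p below 0.05, 3 of the SREBP targets were higher and 1 lower (16.7% and 5.56%), where the shares over all genes were 5.39% and 8.89%. Insig1, which encodes the sterol-regulated brake on SCAP and is itself an SREBP target, had the largest positive estimate of the 18. It read 368, 654 and 632 in spinal cord against 234, 390 and 248 in lymph node. Array 1 of spinal cord lay within the lymph node range, but each number showed a higher value in spinal cord, by 1.57-fold, 1.68-fold and 2.55-fold. The change was 0.92 ± 0.30, with an adjusted p of 0.235 that became 0.0274 with the block.

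Among enzymes of the mevalonate segment, which turns acetyl-CoA units into isoprenoids, none was called without the block. Hmgcs1, the enzyme that makes the HMG-CoA precursor, read 1582, 1004 and 2396 in spinal cord against 1266, 1588 and 2287 in lymph node. These ranges overlapped almost entirely (-0.09 ± 0.37), and 3 of its 4 other probe sets had the same sign. Mvk, Mvd, Idi1 and Fdps, further steps of the segment, had changes between -0.05 and 0.20. Another Mvk probe set, at 112 to 205, had -0.52, and averaging both gave Mvk -0.22. Pmvk, phosphomevalonate kinase, stood apart at 374, 287 and 460 against 504, 485 and 693. It was lower without overlap, with a change of -0.59 ± 0.23 that was called with the block (adjusted p = 0.0348) and not without it (0.315).

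The enzymes from squalene to lanosterol had positive estimates. Fdft1, squalene synthase, changed by 0.26 ± 0.26. Sqle, the squalene epoxidase that limits flux, read 846, 914 and 670 in spinal cord against 428, 785 and 418 in lymph node. Only lymph node array 2 reached the spinal cord range, and the change was 0.63 ± 0.28 (adjusted p = 0.396, and 0.0768 with the block). Lss, which closes the squalene epoxide into lanosterol, read 386, 399 and 492 against 282, 233 and 370. All spinal cord values of Lss were higher than all lymph node values, but the change of 0.55 ± 0.20 passed neither fit (adjusted p = 0.297, and 0.0503 with the block), and both other Lss probe sets, at 22 to 63, had negative estimates. Averaging all 3 gave 0.06.

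Late steps from lanosterol to cholesterol went both ways. Cyp51, which removes a methyl group from lanosterol, had a change of 0.28 ± 0.19. The other Cyp51 probe sets had -0.10 and -0.14, and averaging all 3 gave 0.01. Hsd17b7, a ketosteroid reductase, read 350, 522 and 849 in spinal cord against 188, 359 and 530 in lymph node. The tissues overlapped, while each number was higher in spinal cord by 1.86-fold, 1.45-fold and 1.60-fold (0.71 ± 0.47, adjusted p = 0.598, and 0.0236 with the block), and its 3 other probe sets had positive estimates too. Sc5d, the lathosterol desaturase, was higher without overlap, at 1418, 1357 and 1135 against 847, 1072 and 959 (0.44 ± 0.15, adjusted p = 0.239). Its other probe sets had 0.24 and -0.52, and averaging all 3 gave 0.05. Dhcr7, which makes cholesterol from its last precursor, had the most negative estimate of the 18, at 450, 214 and 184 against 919, 533 and 269. Within numbers Dhcr7 was lower by 2.04-fold, 2.49-fold and 1.46-fold (-0.96 ± 0.53, adjusted p = 0.512, and 0.0250 with the block). Tm7sf2, a sterol reductase, had a change of -0.60 ± 0.33, and Nsdhl and Ebp had 0.01 and -0.07. Stard4, a carrier of cholesterol between membranes, had 0.13 ± 0.33.

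Fatty acid synthesis genes had a median of -0.23, with 7 of 10 estimates negative, 1 called lower and 0 higher. Scd2 (probe set 1415822_at) read 1089, 2136 and 1431 in spinal cord against 4117, 7100 and 6915 in lymph node. No value overlapped, and within numbers Scd2 was 3.78-fold, 3.32-fold and 4.83-fold lower in spinal cord. Mean log2 levels were 10.54 ± 0.49 and 12.52 ± 0.44 (SD, n = 3 each), a difference of -1.97 ± 0.32 (SE) that limma called at an adjusted p of 0.0397. Another Scd2 probe set read 83, 164 and 125 against 267, 347 and 524 (-1.61), and the dimmest, at 27 to 47, had -0.27. The Scd2 call held without lymph node array 1 (adjusted p = 0.0487). It was lost without lymph node array 2 (0.165) or 3 (0.129) and without spinal cord array 1 (0.101), 2 (0.0743) or 3 (0.138).

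Scd1, the desaturase paralog of Scd2, had the opposite sign at dim values, 59, 51 and 50 against 49, 36 and 41. These values did not overlap, lay below the array medians of 68 to 71, and gave a change of 0.35 ± 0.15 (adjusted p = 0.385). Fasn, fatty acid synthase, read 952, 589 and 420 in spinal cord against 1578, 1291 and 590 in lymph node. Array 3 was the lowest in each tissue and the tissues overlapped, with a change of -0.78 ± 0.46 (adjusted p = 0.537, and 0.0328 with the block).

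The enzymes that feed fatty acid synthesis had no called change in either fit. Acly, which supplies cytosolic acetyl-CoA, had a change of -0.08 ± 0.16. Its other probe sets had changes from -0.30 to 0.20, of which 4 had the same sign. Acaca, the carboxylase that makes malonyl-CoA, had -0.24 ± 0.20, and a dimmer Acaca probe set, at 27 to 39, had 0.25. Of the chain elongases, Elovl5 was lower without overlap, at 8136, 10095 and 9640 against 10903, 12906 and 12892, but its change of -0.40 ± 0.14 was not called (adjusted p = 0.261, and 0.0734 with the block). A second Elovl5 probe set was also lower without overlap, at 3715, 6955 and 6091 against 7820, 10160 and 8617 (-0.71 ± 0.26). Elovl6 had -0.59 ± 0.29 and Elovl1 0.02 ± 0.25. The polyunsaturated fatty acid desaturase gene Fads1 had -0.22 ± 0.18. Fads2, its partner, was dim at 41 to 52.

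The programs were then set side by side, with the fatty acid synthesis genes, which SREBP also switches on, kept apart. With 3 genes, the LXR median was the value of Mylip (-0.97), also within each number. The median change of the 18 SREBP targets of sterol synthesis exceeded that of the LXR targets by 1.12 on the log2 scale. Within array numbers 1, 2 and 3 this difference was 1.07, 0.84 and 1.38. SREBP target medians within those numbers were 0.33, -0.03 and 0.10, and LXR target medians were -0.74, -0.87 and -1.28. Fatty acid synthesis medians were -0.08, -0.33 and -0.20, between the others in each number. Leaving out single arrays gave differences of 0.97 to 1.33 between the programs, and counting Srebf1 and Scd1 as LXR targets gave 0.86. These are descriptions with no test, since the members were chosen with earlier results of these data known.

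**Figure D3:**
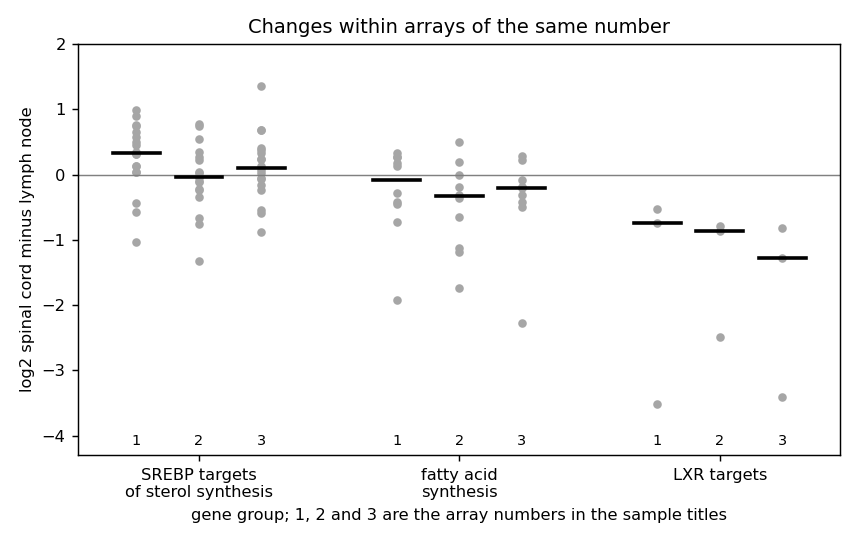
Log2 spinal cord minus lymph node (y axis) within arrays of the same number for each gene (grey points), with group medians (black bars), in 3 gene groups (x axis). The LXR target median lies at -0.74, -0.87 and -1.28 in numbers 1, 2 and 3, below both other groups in each number.

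Transcripts of the regulators themselves showed no called difference. Srebf1 read 1468, 1097 and 695 in spinal cord against 1633, 1280 and 929 in lymph node, and Srebf2 read 483, 605 and 460 against 575, 307 and 387. Both overlapped between tissues, with changes of -0.26 ± 0.33 and 0.33 ± 0.25, and a second Srebf2 probe set had 0.06. Scap was nearly equal within each number, at 1659, 1244 and 703 against 1534, 1199 and 678 (0.07 ± 0.42). A second, dimmer Scap probe set was lower without overlap, at 66, 53 and 47 against 73, 79 and 83 (-0.51 ± 0.16). Insig2, the second INSIG gene, had 0.18 ± 0.26, so that Insig1 was the INSIG gene with a call in the paired fit. That the INSIG genes differed from each other was not tested.

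Cholesterol leaving the lysosome passes through the proteins of Npc2 and Npc1. Npc2 read 13137 to 14630 in spinal cord against 12274 to 13555 in lymph node (0.13 ± 0.11), and Npc1 had 0.01 ± 0.24. Neither was called in either fit.

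Of 48 further pathway genes, 41 were measured, and 0 were called by tissue alone. At an unadjusted p below 0.05, 2 were higher and 4 lower (4.88% and 9.76%, against 5.39% and 8.89% of all genes). With the block 6 were called lower (14.6%, against 7.44% of all genes) and 0 higher. Hacd3, a dehydratase of fatty acid elongation, read 2724, 2191 and 3119 against 5333, 4661 and 6285 without overlap (-1.02 ± 0.18, adjusted p = 0.0514, and 0.00544 with the block). Lipa, the lysosomal lipase that frees cholesterol from its esters, read 949, 833 and 484 against 3077, 2279 and 857 (-1.32 ± 0.52, adjusted p = 0.327, and 0.0138 with the block). The lipoprotein receptor gene Scarb1 (-0.57), the SREBP protease gene Mbtps1 (-0.57), the elongation reductase gene Tecr (-0.52) and the sterol scaffold gene Erg28 (-0.63) were the others called lower with the block, at adjusted p values of 0.0459, 0.0373, 0.0474 and 0.0270. The median of the 41 was -0.04.

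Estimates for markers of other cells and of division also differed by tissue in these bulk samples, in which fewer cells of a type and less RNA per cell cannot be told apart. All 11 measured markers of macrophages, monocytes and microglia had positive estimates (0 called, 5 with the block, median 1.10). Their summed intensity was 5460 to 11666 there and 2267 to 3049 in lymph node. Ccr2, which T cells can also express, made most of the sum on all 6 arrays. Without Ccr2 the sums were 1097 to 4852 against 513 to 612, with 4 of 10 called higher with the block. Those called were Lyz2, Csf1r, Cx3cr1 and Tyrobp, with log2 changes of 2.98, 2.97, 2.18 and 1.87. Lyz2 read 245, 1771 and 563 in spinal cord against 78, 81 and 78 in lymph node. Csf1r read 237, 1486 and 754 against 99, 57 and 98. The dimmest of the list, Itgam, Mrc1 and Aif1, read 18 to 45. All 9 division markers had negative estimates (0 called, 5 with the block, median -0.82), with sums of 14822 to 17689 against 19383 to 29741. Of 6 B cell markers Cd22 was called lower (6.36-fold), Cd79b with the block, and the sums were 310 to 346 against 927 to 967. Without Cd22 the B cell sums overlapped, at 212 to 238 against 217 to 334. Cd79a, Ms4a1 and Blk had changes of -0.10, -0.10 and -0.02, while Pax5 had a positive estimate (0.28, called in neither fit). Of the neutrophil markers 6 of 6 had positive estimates (0 called, sums 368 to 1333 against 283 to 376), and of 10 oligodendrocyte markers Ermn was called higher, while Mog and Cldn11 read only 13 to 16. Of the same list 8 estimates were positive and 2 negative (median 0.14). The negative ones were Cnp and Mbp. Cnp read 4059 to 6644 in spinal cord against 6453 to 9444 (-0.75, called lower with the block). Mbp read 3397 to 5981 against 3798 to 6110 (-0.06), and of its 8 probe sets 0 others had the same sign. In the remaining lists Itgax, of 6 dendritic cell markers, and Klrk1, of 4 CD8 and natural killer cell markers, were called higher, and none of 7 astrocyte, 7 neuron and 6 endothelial markers was called, though Aldoc, of the astrocyte list, was called higher with the block (0.64). The lowest value of any marker was 13, and none was 0. The part of these cells in the members' differences was not tested. Among the T cell markers 8 of 10 were measured, none was called, and their sums were 40844 to 46840 against 41088 to 56911, with Cd4 at 2063 to 7669. Of the memory markers Cd44 read 6312 to 10631, and Ccr7, the lymph node homing receptor, was called lower (7.55-fold).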

How the data were processed

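Expression was measured on microarrays in 6 samples, 3 per tissue. Per the labels' protocols, biotin-labelled cRNA was made by a repeated-cycle Affymetrix amplification with 1 ng of total RNA as input. The submitters' processing notes name RMA (version not given in the sources used here). Its deposited intensity values are whole numbers on a linear scale, from 9 to 39505. Such small inputs can widen the spread among arrays.

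Here log2 was taken and genes were named from the platform annotation (34958 of 45101 probe sets had 1 symbol). The tissue comparison was fitted with limma 3.58.1 in R 4.3.3 (lmFit and eBayes, two-sided, Benjamini-Hochberg over 18194 genes), after the fit was tested on simulated data. Tables were made in Python 3.11.15 with scipy 1.17.1, numpy 2.4.6 and pandas 2.3.3, and figures with matplotlib 3.10.9. The members and lists were chosen with earlier results of these data known. Every measured member could be named, with pathway genes called in either fit (or the lowest p of a list) and the brightest or called markers. Some markers that were dim and not called, and some dim or bright LXR and oxysterol pathway genes, were named beside these.

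Deviations from tissue means correlated at 0.576, 0.509 and 0.777 between same-numbered arrays and at -0.569 to 0.00503 between the others. Centring builds in part of this contrast, and the pairing rests on the data, since the labels do not say what a number shares. No arrays were copies, since 94.8% or more of the genes had unequal values in each pair. Nothing says that separate animals stand behind the arrays, so a p-value covers only the spread of these samples, perhaps technical. Array number limits the precision. Alternatives were the block, each array left out, a filter at the 40th percentile, other scaling, variance model, array weights, probe set averaging, a floor at the 20th percentile (intensity 25) and a stricter threshold.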

Additional observations from a re-analysis of the deposited data

How the results depend on the processing

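With the replicate block, 2022 genes were called in place of 463, with 2 members higher and 7 lower. Leaving out single arrays gave 81 to 312 called genes, 0 to 1 members lower and 0 higher. In an alternative chosen after seeing the data, the block without both arrays of a number called 0 to 329 genes, and 0 members. An adjusted p below 0.01 left 103 genes and 0 members, and the floor left 161 genes and 0 members. Averaging probe sets left 1 member called lower, Abca1, and moved Acaca to 0.0079. Srebf2 was at -0.0011 with the block without both arrays of number 2. The dim gene filter, median centring, quantile normalization, trend and robust variance and array weights kept 2 members lower and 0 higher. Medians of the SREBP targets, fatty acid synthesis genes and LXR targets moved by less than their spread over array numbers in all alternatives. In 13 uncalled members with a change smaller than its SE the sign turned in at least 1 alternative. Dim values, as for Scd1, Fads2 and Nr1h3, limit what can be seen.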
